A study of Mus musculus with 34 samples.

Results

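The oldest and the youngest cortical astrocytes of a series on male mice were compared: 4 libraries from animals 18 months old (18m) against 4 from postnatal day 7 (P7). They are 8 of the 34 libraries of the series, whose other libraries come from P14, P21, P28, P60 and 3, 6 and 12 months. These 8 libraries were chosen as the extremes of age and for numbers of genes at 0 TPM taken to be similar and high. All came from wild-type male mice, with no treatment named, and from cells taken out of the cortex by a magnetic method, after which polyadenylated RNA was amplified from low input and sequenced. Whether libraries stand for different animals is not given in the labels, and p-values here describe spread between libraries alone.

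At P7 the astrocytes of the mouse cortex are still dividing and have only begun to form fine processes. Over the following weeks they leave the cell cycle, take on uptake of glutamate and potassium, supply of lactate and lipids to neurons, and contact with vessels and synapses. With age, astrocytes are known for antigen presentation, interferon and complement genes at higher levels and for cholesterol synthesis genes at lower ones. A comparison of 18m with P7 spans both processes, and a gene that differs may have changed at any age between.

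Values are TPM, the share of a gene's transcripts scaled to the same sum in each library, made by the authors. They keep no read counts, so the depth of a library is unknown. Of 20613 genes with values, 13134 reached 1 TPM in at least 4 of the 8 libraries and were tested. Between 4109 and 4769 genes were listed at 0 in each of the 8 libraries, with the P7 range (4522 to 4769) and the 18m range (4109 to 4654) overlapping. The overlap came from replicate 1 of 18m alone. The remaining 18m libraries listed 4109 to 4275 genes at 0, fewer than any P7 library. Spearman correlations over the 13134 genes tested were 0.988 to 0.992 between P7 libraries and 0.966 to 0.989 between 18m libraries. The median SD of a gene in log2(TPM + 1) was 0.127 at P7 and 0.246 at 18m. Replicate 1 at 18m stood apart: it lay farthest from the median of its age for 8224 of the 13134 genes, and results that turn on it are given without it.

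Astrocyte transcripts were abundant in all 8 libraries. Slc1a3 (the GLAST glutamate transporter) was at 2573, 2357, 2860 and 2878 TPM at P7 and 1869.7, 2620, 2417 and 2636 TPM at 18m, with overlapping ranges (limma adjusted p = 0.267). Gja1, which encodes connexin 43, was at 1479 ± 58.9 TPM at P7 and 1432 ± 330 TPM at 18m (SD, n = 4 each), and Sox9, the transcription factor of astroglial fate, at 116 ± 22.6 TPM at P7 and 112 ± 26 TPM at 18m (SD, n = 4 each), also with overlap. Transcripts of other cells were present too and are given below. In such bulk libraries fewer cells of a type and less RNA per cell cannot be told apart.

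Of the 13134 genes, 754 (5.74%) were called higher at 18m and 3369 (25.7%) lower, at a Benjamini-Hochberg adjusted p under 0.05 from limma on log2(TPM + 1). The verbs rose and fell are kept for such calls, 18m against P7, and a fold value is the ratio of mean TPM. In 642 genes (4.89%) every 18m library was above every P7 library, and in 4185 (31.9%) every one was below. The uneven split depends on the scale. The median log2 fold change over all genes was -0.22, and it was 0.01 after median-of-ratios rescaling, which sets the typical gene equal between libraries. After that rescaling 1555 genes (11.8%) were higher and 1353 (10.3%) lower. All 1353 were among the 3369, and 753 of the 754 were among the 1555, while no gene was called in opposite directions. These 4 shares are the background for the counts of every gene list, and a list's counts after rescaling are given where they differ by more than 1.5 times from those on deposited TPM. Counts without a library leave out 1 library at a time, also where several are named, and are given where they move by more than 1.5 times. Without replicate 1 of 18m the count of higher genes was 1329. The count of lower genes was 2060, 1914, 1979 and 1835 without P7 replicates 1 to 4 and 2231 without 18m replicate 2.

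**Figure D1:**
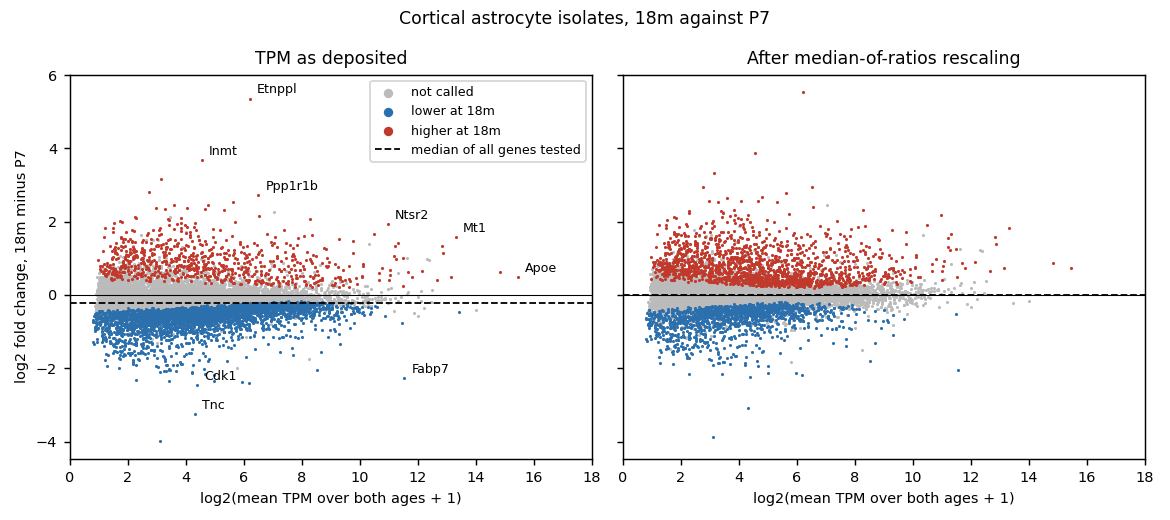
Log2 fold change (18m minus P7) of each of the 13134 genes against its log2 mean TPM over both ages, on TPM as deposited (left) and after median-of-ratios rescaling (right), with genes called by limma in colour and the median of all genes as a dashed line. The median lies at -0.22 on the left and 0.01 on the right, and genes such as Etnppl, Inmt, Tnc and Fabp7 lie far from it on both scales.

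A handful of very abundant transcripts gained. The 10 genes with the largest gain in mean TPM made up 8.39% to 9.65% of all transcripts in the P7 libraries and 13.8% to 16.2% in those of 18m. The 20 most abundant genes of each library held 15.6% to 18.2% at P7 and 20.7% to 25.1% at 18m. Apoe, the main lipid carrier made by astrocytes (GRCm38 chromosome 7, 19696109 to 19699188), was at 36234, 35016, 39127 and 38645 TPM at P7 and 50435, 52199.7, 51754 and 54677 TPM at 18m. Every 18m library exceeded every P7 library, and the mean was 1.40-fold higher (0.49 ± 0.06 SE on the log2 scale, limma adjusted p = 0.000838). Cst3, the secreted protease inhibitor cystatin C, was 1.54-fold higher, and Clu, the extracellular chaperone clusterin, 2.20-fold higher. Mt1 and Mt2, metallothioneins that bind zinc and copper, were 3.07-fold and 2.54-fold higher. The rest were Aldoc, Ckb, Ntsr2, Gpr37l1 and Prdx6. After quantile normalization, which assigns the most abundant gene the same value in every library, Apoe had a log2 fold change of 0 and Ckb one of -0.26 (limma adjusted p = 0.136).

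Mt1 was at 4761, 4802, 5670 and 4795 TPM at P7 and 22508, 13523, 11549.7 and 13865 TPM at 18m. Replicate 1 of 18m was the highest, and the other 3 libraries of that age also exceeded all of P7 (1.57 ± 0.17 SE on the log2 scale, limma adjusted p = 0.000354). Of 22 genes of metallothionein, glutathione and oxidative stress defence tested, 7 rose and 2 fell (median log2 fold change 0.06, and 0.30 after rescaling). After rescaling limma called 10 higher and 0 lower, with 0 lower at an unadjusted p under 0.05. Without P7 replicates 1 or 2 there was 1 fall, and the falls were not called without P7 replicates 3 or 4 or 18m replicate 2. Gstm1, a glutathione transferase, was 2.02-fold higher (1882 ± 78.5 TPM at P7 and 3804 ± 574 TPM at 18m, SD, n = 4 each), and Prdx6, a peroxiredoxin, 1.57-fold higher.

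The most abundant transcripts that declined included early astroglial genes. Fabp7, the brain fatty acid binding protein of radial glia and immature astrocytes (GRCm38 chromosome 10, 57784881 to 57788450), was at 5329, 3598, 4433 and 5304 TPM at P7 and 967, 790.1, 2896 and 367 TPM at 18m. The ages did not overlap, though 18m replicate 3 lay well above the other 18m libraries (3.72-fold lower, -2.28 ± 0.51 SE on the log2 scale, limma adjusted p = 0.0114). Tuba1a, an alpha-tubulin, was 1.67-fold lower, Pea15a, an astrocyte phosphoprotein that binds ERK, 2.49-fold lower, and the tetraspanin Cd9 1.78-fold lower. Dbi, Igfbp2, Id3, Hspa8, Rps29 and Rpl41 also belonged to the 10 largest losses in TPM. These 6 fell by between 0.47 and 0.77 on the log2 scale and were not called after rescaling.

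Genes of cell division fell as a group. All 30 of 30 replication and mitosis genes on the list were called lower, against 25.7% of all genes, and 28 were after rescaling (median log2 fold change -1.44, and -1.29 after rescaling). Cdk1, the kinase that drives entry into mitosis (GRCm38 chromosome 10, 69335146 to 69352938), was at 35.9, 30.9, 29.1 and 38.6 TPM at P7 and 7.52, 3.81, 9.02 and 2.69 TPM at 18m. It was 5.84-fold lower with no overlap (-2.46 ± 0.28 SE on the log2 scale, limma adjusted p = 0.000431). Aurkb, the kinase of the chromosomal passenger complex, was at 17.6, 15.8, 14.3 and 19.5 TPM at P7 and 3.47, 4.36, 3.56 and 2.18 TPM at 18m. Its ages were separated by a wide gap (4.96-fold lower, -2.04 ± 0.17 SE on the log2 scale, limma adjusted p = 0.000126). Birc5, which encodes survivin of the same complex, was 6.53-fold lower (16.8 ± 2.78 TPM at P7 and 2.57 ± 1.1 TPM at 18m, SD, n = 4 each). Plk1, the polo kinase, was 4.42-fold lower, and the centromere genes Cenpa and Cenpf were 3.51-fold and 5.91-fold lower. Cks2, a CDK subunit, Cdkn3, a CDK-binding phosphatase, and Pbk, a mitotic kinase, were outside the list but among the 12 largest falls, at 4.69-fold, 11.28-fold and 4.98-fold. Mki67, the proliferation marker Ki-67, was at 2.71, 1.96, 1.88 and 2.73 TPM at P7 and 0.162, 0.225, 0.369 and 0.267 TPM at 18m, low at both ages and called lower (limma adjusted p = 0.0003).

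The promoters of 3 of the cell cycle genes with the smallest p among those with an entry are shown because the group moved together. They are 150 bases upstream of the RefSeq start on GRCm38.p6, 5′ to 3′ on the strand of the gene, with each CCAAT box in capitals (CCAAT, or ATTGG where it lies on the other strand). The CCAAT box binds the factor NF-Y and is common in promoters of mitotic genes.
Cenpf, chr1:189688087-189688236, minus strand: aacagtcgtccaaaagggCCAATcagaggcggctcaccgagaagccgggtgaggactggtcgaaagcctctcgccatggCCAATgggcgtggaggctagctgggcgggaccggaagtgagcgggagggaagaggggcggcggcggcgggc
Cenpa, chr5:30666736-30666885, plus strand: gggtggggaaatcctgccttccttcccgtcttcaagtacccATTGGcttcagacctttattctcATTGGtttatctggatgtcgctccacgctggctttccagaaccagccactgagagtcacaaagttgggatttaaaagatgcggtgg
Plk1, chr7:122159285-122159434, plus strand: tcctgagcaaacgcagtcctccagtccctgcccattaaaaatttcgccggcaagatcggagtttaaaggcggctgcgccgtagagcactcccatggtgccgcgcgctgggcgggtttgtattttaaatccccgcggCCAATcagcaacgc
Within 250 bases upstream, 24 of the 26 cell cycle genes with an entry held CCAAT on either strand (92.3%). The share was 36.7% of 10445 promoters of tested genes and 34.5% of the 27025 entries searched. TTTGAA, a form of the cell cycle homology region, was found in 8 of the 26 (30.8%). It was in 10.2% of promoters of tested genes and 16.3% of the 27025 entries. Among the other lists that moved mainly lower, cholesterol synthesis held CCAAT nearly as often, at 88.2%, and the rest held it less often. Shares were 33.3% for microtubule and migration, 34.8% for ribosomal proteins, 47.1% for DNA methylation and Polycomb, 52.9% for collagens and 60% for progenitor genes. TTTGAA was found in 29.4% of the DNA methylation and Polycomb list. These are matches of letters, not measured binding.

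Genes that keep DNA methylation through replication fell beside them. Uhrf1, which recruits the maintenance methyltransferase to new DNA, was at 7.37, 8.25, 8.52 and 8.32 TPM at P7 and 2.26, 2.96, 4.07 and 3.26 TPM at 18m (2.58-fold lower, limma adjusted p = 0.000844). Dnmt1, that methyltransferase, was 1.90-fold lower, and Ezh2, the Polycomb histone methyltransferase, 1.69-fold lower. Cbx7, a Polycomb reader found in differentiated cells, went the other way at 2.30-fold higher (10.4 ± 1.61 TPM at P7 and 23.9 ± 8.06 TPM at 18m, SD, n = 4 each, limma adjusted p = 0.00467). Of 20 genes of this list 1 rose and 9 fell, while after rescaling 2 rose and 6 fell. There were 5 falls without P7 replicate 1.

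Fetal growth genes were lower at 18m, though several were still expressed. Igf2, the imprinted fetal growth factor (GRCm38 chromosome 7, 142650766 to 142666816), was at 269, 251, 183 and 184 TPM at P7 and 145, 86.3, 75.5 and 94.5 TPM at 18m. All 18m libraries lay below all P7 libraries, and the mean was 2.21-fold lower (-1.16 ± 0.20 SE on the log2 scale, limma adjusted p = 0.00282). Ndn, which encodes the growth suppressor necdin, was 2.58-fold lower and Grb10, an adaptor that restrains insulin and IGF receptors, 2.54-fold lower. Of 14 tested genes of the imprinted growth network 8 fell, while after rescaling 5 fell (median log2 fold change -0.55, and -0.32 after rescaling). Without P7 replicates 1, 2 or 4 there were 5 falls. Igf2bp3, a fetal RNA-binding protein, was at 2.41, 1.85, 1.8 and 2.13 TPM at P7 and 0.566, 0.27, 0.423 and 0.565 TPM at 18m (limma adjusted p = 0.000872). It belongs to a separate list of 10 Lin28 and Igf2bp network genes, of which 3 were tested and 1 was called. The median log2 fold change of that list was -0.11, and 0.02 after rescaling. Igf2 is also made by meningeal fibroblasts, of whose 7 markers 4 fell, and their part in this result was not tested.

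Early astroglial genes showed the same direction. Tnc, the tenascin C gene, active in immature astroglia (GRCm38 chromosome 4, 63959785 to 64047015), was at 35.1, 29.7, 34.5 and 38.6 TPM at P7 and 0.565, 3.55, 3.95 and 4.41 TPM at 18m. It was 11.05-fold lower, with replicate 1 of 18m the lowest (-3.25 ± 0.34 SE on the log2 scale, limma adjusted p = 0.000277). Of 18 progenitor and immature astroglia genes 1 rose and 12 fell, while after rescaling 2 rose and 7 fell (median log2 fold change -0.49, and -0.25 after rescaling). There were 2 rises without 18m replicate 1. The transcription factors Sox4 and Sox11, active in immature neural cells, were 1.95-fold and 2.85-fold lower. Hopx, a homeodomain protein of radial glia and of mature astrocytes, was the gene of this list that rose on deposited TPM, at 1.76-fold higher (limma adjusted p = 0.00199). Nrep, a small protein of growing and regenerating cells, was at 107, 112, 90.7 and 96.6 TPM at P7 and 12.2, 22.4, 28.6 and 16.1 TPM at 18m (5.11-fold lower). Of 20 microtubule and migration genes, Nrep among them, 1 rose and 10 fell, while after rescaling 3 rose and 6 fell. Without 18m replicate 1 there were 3 rises. Stmn1, a tubulin-binding phosphoprotein, was 1.90-fold lower.

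Genes of growth signalling were lower about as often as all genes. Bmpr1a, a type I BMP receptor, was 2.26-fold lower and Smo, the signal transducer of the hedgehog pathway, 1.68-fold lower. Of 25 genes of Notch, hedgehog, BMP and FGF signalling 8 fell, while after rescaling 3 fell, near the 25.7% of all genes lower on deposited TPM and the 10.3% after rescaling. There were 5 falls without P7 replicates 3 or 4.

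**Figure D2:**
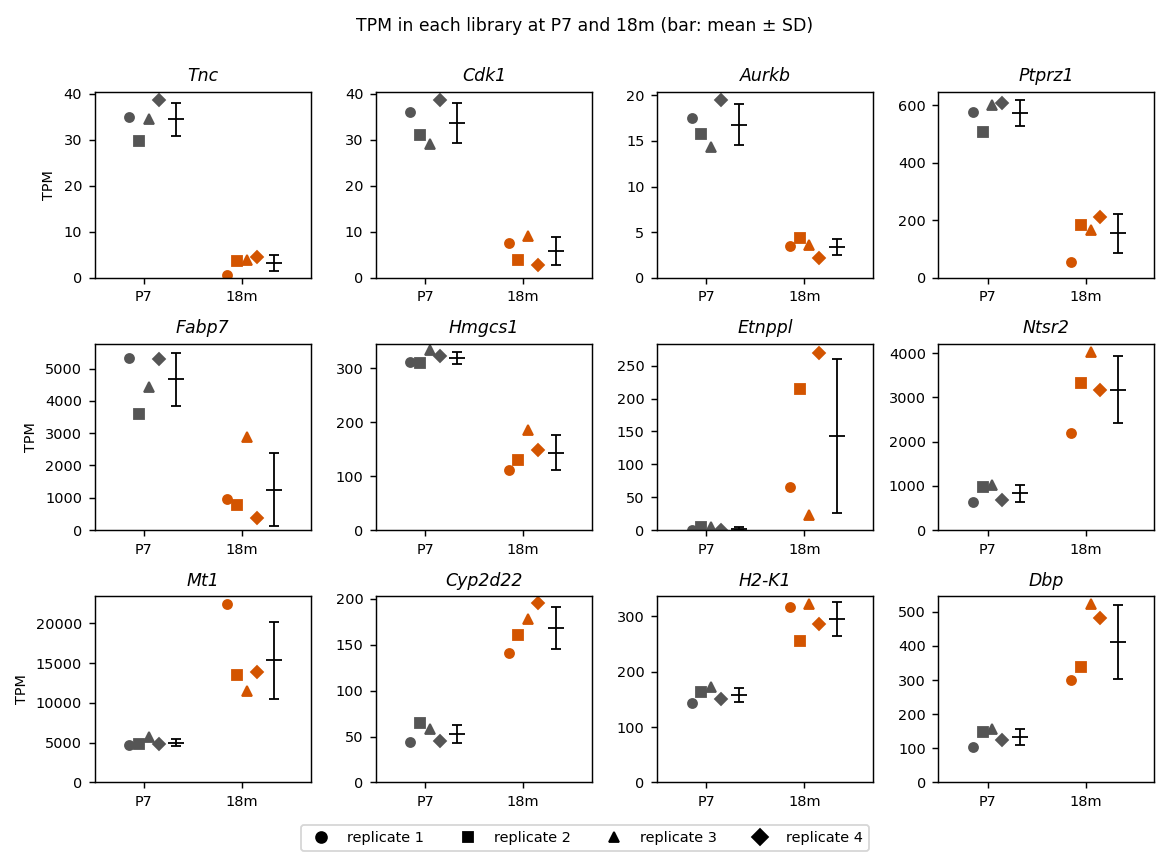
TPM of 12 genes in each of the 4 libraries at P7 and at 18m, 1 marker shape per replicate number, with the mean and SD of each age beside the points. In all 12 genes, picked from named genes that were called, the 2 ages did not overlap. Of all genes tested, 4.89% were higher and 31.9% lower at 18m without overlap. Replicate 1 of 18m was the lowest of its age for Tnc and Ptprz1 and the highest for Mt1.

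Ptprz1, Ncan and Hapln4, genes of the matrix around neural cells, fell. Ptprz1, a phosphatase whose extracellular part is a chondroitin sulphate proteoglycan, was at 579, 507, 601 and 607 TPM at P7 and 56, 185, 165 and 212 TPM at 18m. It was 3.71-fold lower and replicate 1 of 18m was the lowest (-2.04 ± 0.35 SE on the log2 scale, limma adjusted p = 0.00336). Ncan, which encodes the proteoglycan neurocan, was at 108, 108, 126 and 117 TPM at P7 and 5.32, 21.5, 65.7 and 22.9 TPM at 18m, again with replicate 1 lowest and replicate 3 highest at 18m (3.97-fold lower, limma adjusted p = 0.0124). Hapln4, a link protein of perineuronal nets, was at under 1 TPM in all 18m libraries and 3.48-fold lower. Of 13 genes of the proteoglycan and tenascin list 2 rose and 4 fell, and the falls are near the 25.7% of all genes. Without P7 replicate 2 or 18m replicate 3 there was 1 rise, and the rises were not called without P7 replicates 1, 3 or 4 or 18m replicates 2 or 4.

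Collagen and basement membrane genes fell more widely. Of 24 genes 16 fell, while after rescaling 1 rose and 10 fell (median log2 fold change -0.89, and -0.67 after rescaling). Col3a1, a fibrillar collagen, was at 28.4, 23.5, 17.5 and 18.9 TPM at P7 and 6.4, 4.37, 7.4 and 3.39 TPM at 18m (4.09-fold lower, limma adjusted p = 0.000481). Col1a2, a chain of collagen I, was 2.40-fold lower, Plod2, a collagen lysyl hydroxylase, 2.31-fold lower, and the laminin chain Lamb1 2.29-fold lower. Col1a2 and Col3a1 are also fibroblast markers. The 7 fibroblast markers summed to 404 to 724 TPM at P7 and 284 to 385 TPM at 18m without overlap, and 1 rose and 4 fell. The rise was not called without P7 replicates 2, 3 or 4 or 18m replicates 2, 3 or 4. Their part in the collagen result was not tested.

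Mature astrocyte markers were called both ways, and the falls were about as frequent as over all genes. Over all genes 5.74% rose and 25.7% fell, or 11.8% and 10.3% after rescaling. Of 22 markers 7 rose and 5 fell, while after rescaling 9 rose and 2 fell (median log2 fold change 0.02, and 0.27 after rescaling). Without P7 replicates 3 or 4 there were 3 falls. Ntsr2, the neurotensin receptor of astrocytes (GRCm38 chromosome 12, 16653382 to 16660227), was at 644, 979, 1014 and 677 TPM at P7 and 2187, 3322, 4036 and 3161 TPM at 18m. Its lowest 18m library was above all of P7, and the mean was 3.83-fold higher (1.93 ± 0.20 SE on the log2 scale, limma adjusted p = 0.000255). Gpr37l1, a receptor of astrocytes, was 2.66-fold higher, Gjb6, which encodes connexin 30, 2.89-fold higher, and the claudin Cldn10 1.73-fold higher. S100b, the calcium-binding marker protein, was at 79.6, 93.4, 106 and 86.2 TPM at P7 and 143, 169, 277 and 174 TPM at 18m (2.09-fold higher). The glutamine synthetase gene Glul was 1.70-fold higher (1299 ± 142 TPM at P7 and 2205 ± 523 TPM at 18m, SD, n = 4 each).

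Gfap, Aqp4 and Aldh1l1, markers in wide use, fell on deposited TPM. Gfap, the astrocyte intermediate filament (GRCm38 chromosome 11, 102887336 to 102900912), was at 699.5, 929, 969 and 752 TPM at P7 and 582, 369.5, 447 and 257 TPM at 18m. It was 2.02-fold lower without overlap (-1.06 ± 0.21 SE on the log2 scale, limma adjusted p = 0.00613), but not called after rescaling (-0.82 on the log2 scale, limma adjusted p = 0.0621). Aqp4, the water channel of endfeet, was at 685, 769, 820.2 and 696 TPM at P7 and 278, 377, 504 and 368 TPM at 18m (1.95-fold lower, limma adjusted p = 0.00169), and stayed called after rescaling (-0.74 on the log2 scale, limma adjusted p = 0.00259). Aldh1l1, a folate enzyme used to mark astrocytes, was 1.54-fold lower. Slc1a2, the glutamate transporter GLT-1, was at 211 ± 34.1 TPM at P7 and 236 ± 20.1 TPM at 18m (SD, n = 4 each), not called on deposited TPM (limma adjusted p = 0.247) and called higher after rescaling (0.41 on the log2 scale, limma adjusted p = 0.0471).

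Several of the steepest rises were genes of small or variable level. Etnppl, which encodes the phosphoethanolamine lyase of astrocytes (GRCm38 chromosome 3, 130617448 to 130637521), was at 0.0346, 5.34, 3.93 and 0.0447 TPM at P7 and 66.2, 214, 23.3 and 269 TPM at 18m. Values at 18m ran over an order of magnitude, yet all exceeded P7 (61.27-fold, 5.36 ± 0.85 SE on the log2 scale, limma adjusted p = 0.00244). Inmt, an N-methyltransferase of indoleamines (GRCm38 chromosome 6, 55170626 to 55175043), was at 1.86, 2.9, 1.51 and 2.62 TPM at P7 and 52.5, 19.5, 48.2 and 49.3 TPM at 18m and 19.07-fold higher. Ppp1r1b, which encodes the phosphatase inhibitor DARPP-32, was at 19.3, 27.6, 24.1 and 19.9 TPM at P7 and 116, 185, 136 and 188 TPM at 18m (6.88-fold higher, limma adjusted p = 5.16e-05). Sncg, gamma-synuclein, was 5.74-fold higher, Hhatl 5.49-fold higher, Tmem52 8.10-fold higher, Tmem255b 7.19-fold higher and the apolipoprotein gene Apoc3 7.84-fold higher. Pde4c, a cyclic AMP phosphodiesterase, was at 0.0246, 1.08, 0.941 and 0 TPM at P7 and 24.4, 8.48, 4.95 and 5.75 TPM at 18m. Neu4, a sialidase, and Pllp, the myelin membrane protein plasmolipin, are genes of the oligodendrocyte lineage, and Sst encodes the neuropeptide somatostatin. Neu4 was 21.05-fold higher, Pllp 6.56-fold higher and Sst 8.35-fold higher.

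The steepest falls outside the groups above were Pla2g3, a secreted phospholipase, at 4.81-fold, and Eepd1, a nuclease family member, at 4.54-fold. Exosc6, which encodes a subunit of the RNA exosome, was at 18, 17.6, 9.28 and 16.3 TPM at P7 and 0, 0, 0 and 0 TPM at 18m. The gene is listed at 0 in all 4 libraries at 18m, and since an exact 0 can be a failed estimate no fold is given.

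Ion channels and transporters were mixed. Kcnk1, a potassium leak channel, was at 132, 169, 187 and 131 TPM at P7 and 515, 592, 305 and 551 TPM at 18m (3.17-fold higher, limma adjusted p = 0.000546). The sodium pump regulator Fxyd1 was 1.84-fold higher, while its relative Fxyd6 was 2.11-fold lower. Of 21 genes of channels, pumps and connexins 3 rose and 3 fell, while after rescaling 5 rose and 3 fell. There were 8 rises without 18m replicate 1. Grm5, the metabotropic glutamate receptor of young astrocytes, was at 15.1, 12.8, 14.6 and 15.1 TPM at P7 and 1.46, 5.47, 4.66 and 2.1 TPM at 18m (4.20-fold lower, limma adjusted p = 0.00137). Glud1, glutamate dehydrogenase, was 1.51-fold lower. Of 18 genes of glutamate and GABA handling 6 fell, while after rescaling 1 rose and 3 fell, against 25.7% and 10.3% of all genes lower. Without P7 replicates 2 or 3 there were 3 falls.

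Among secreted regulators of synapses, Gpc4, a glypican that promotes excitatory synapses, was 1.88-fold lower and Tgfb2 1.85-fold lower. Thbs4, a thrombospondin, was at 5.11, 11.1, 11.9 and 5.14 TPM at P7 and 9.05, 6.58, 6.51 and 7.59 TPM at 18m, with the ages overlapping (limma adjusted p = 0.865). Of 18 such genes 1 rose and 4 fell, while after rescaling 2 rose and 4 fell. There were 2 rises without 18m replicate 1. Without 18m replicate 3 there were 8 falls. Gas6, a bridging ligand for phagocytic receptors, was 2.24-fold higher (39.4 ± 9.16 TPM at P7 and 88.2 ± 20.7 TPM at 18m, SD, n = 4 each), and of 14 phagocytosis genes 2 rose and 4 fell, while after rescaling 2 rose and 2 fell. There was 1 rise without P7 replicates 1 or 4 or 18m replicate 2. Of the transcription factors, Nfib, which promotes gliogenesis, was 1.63-fold lower and Dbx2, a homeobox gene of astrocytes, 1.45-fold higher. Of 18 on their list 1 rose and 4 fell, while after rescaling 4 rose and 1 fell. Without 18m replicate 1 there were 5 rises. There were 2 falls without P7 replicates 1 or 4. On deposited TPM the falls on the synapse, phagocytosis and transcription factor lists were near the 25.7% of all genes. After rescaling 10.3% of all genes were lower.

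Cholesterol synthesis genes were lower. Hmgcs1, which makes the HMG-CoA of the pathway (GRCm38 chromosome 13, 119690379 to 119708260), was at 313, 310.1, 334 and 323 TPM at P7 and 111, 129.7, 186 and 149 TPM at 18m. It was 2.22-fold lower without overlap (-1.17 ± 0.13 SE on the log2 scale, limma adjusted p = 0.000404). Cyp51, the lanosterol demethylase, was 2.21-fold lower. Of 23 genes 16 fell, while after rescaling 1 rose and 9 fell (median log2 fold change -0.53, and -0.29 after rescaling). Among carriers, Abca1, the cholesterol exporter, was 2.08-fold lower and Lcat, which esterifies cholesterol on lipoproteins, 1.59-fold higher. Of 19 genes of cholesterol and lipid transport 5 rose and 5 fell, while after rescaling 7 rose and 3 fell. Without P7 replicates 3 or 4 there were 3 falls.

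Promoters of 3 genes of this list are shown in the same way, with capitals for CCAAT and for TCACNCCAC, the core of the classical sterol regulatory element.
Hmgcs1, chr13:119690201-119690350, plus strand: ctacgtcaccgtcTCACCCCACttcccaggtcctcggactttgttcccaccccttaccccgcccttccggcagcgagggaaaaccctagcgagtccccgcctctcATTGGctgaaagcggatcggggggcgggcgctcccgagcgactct
Cyp51, chr5:4104698-4104847, minus strand: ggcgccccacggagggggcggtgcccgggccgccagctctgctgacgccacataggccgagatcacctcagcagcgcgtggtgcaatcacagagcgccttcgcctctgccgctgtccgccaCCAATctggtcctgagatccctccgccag
Nsdhl, chrX:72918371-72918520, plus strand: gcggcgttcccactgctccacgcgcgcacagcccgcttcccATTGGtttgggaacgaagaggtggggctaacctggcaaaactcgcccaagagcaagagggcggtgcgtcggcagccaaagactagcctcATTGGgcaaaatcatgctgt
Hmgcs1 held 1 match to TCACNCCAC in the stretch shown, and Cyp51 and Nsdhl held CCAAT alone of these motifs. Of the 17 cholesterol synthesis genes with an entry, 15 held CCAAT within 250 bases upstream (88.2%), against 36.7% of promoters of tested genes. TCACNCCAC was held by 1 of the 17 (5.88% against 0.977%), the same share as in the collagen list (1 of 17). Nsdhl, a sterol dehydrogenase, was 1.53-fold lower.

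Glycolysis genes rose in larger number than they fell. Of 23 genes of glycolysis and glycogen 9 rose, against 5.74% of all genes, and 4 fell (median log2 fold change 0.24, and 0.49 after rescaling). There were 2 falls without P7 replicate 3. Aldoc, the astrocyte aldolase, was at 3583, 4011, 4655 and 3979 TPM at P7 and 13673, 12564, 7104 and 8631 TPM at 18m, with replicates 1 and 2 the highest (2.59-fold higher, limma adjusted p = 0.00118). Slc2a1, the glucose transporter GLUT1, was 1.95-fold higher, Gapdh 1.56-fold higher and Ldhb, a lactate dehydrogenase subunit, 1.46-fold higher. Ckb, brain creatine kinase, was 1.41-fold higher (7443 ± 507 TPM at P7 and 10471 ± 949.6 TPM at 18m, SD, n = 4 each). Of 20 genes of fatty acid oxidation and ketone metabolism 6 fell, while after rescaling 2 rose and 1 fell, against 25.7% and 10.3% of all genes lower. Without P7 replicates 3 or 4 there were 3 falls.

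Calls of ribosomal and respiratory chain genes turned on the scale. Of 32 ribosomal protein genes 28 fell on deposited TPM (median log2 fold change -0.39, and -0.15 after rescaling). After rescaling limma called 0 of them, with 4 lower at an unadjusted p under 0.05, and in a fit of all 34 libraries 13 fell. Rps19 was 1.62-fold lower (limma adjusted p = 0.000451, and -0.46 on the log2 scale, limma adjusted p = 0.0645 after rescaling) and Rpl32 1.55-fold lower. Ndufa1, a complex I subunit, was 1.60-fold lower, and neither it nor Rpl32 was called after rescaling. Of 28 respiratory chain genes 4 fell. After rescaling limma called 2 higher and 0 lower, with 1 lower at an unadjusted p under 0.05. There were 2 falls without P7 replicates 1, 2 or 4 and 9 without 18m replicate 1.

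Several enzymes of xenobiotic and fatty acid metabolism rose. Cyp2d22, a cytochrome P450 (GRCm38 chromosome 15, 82370527 to 82380260), was at 44.6, 64.4, 58.2 and 45.2 TPM at P7 and 141, 159.9, 177 and 195 TPM at 18m. It was 3.17-fold higher with a wide gap between the ages (1.65 ± 0.14 SE on the log2 scale, limma adjusted p = 0.000126). The fatty acid and eicosanoid hydroxylase Cyp4f15 was at 95 ± 12.1 TPM at P7 and 257 ± 41.3 TPM at 18m (SD, n = 4 each), its relative Cyp4f14 was 2.15-fold higher, and the epoxide hydrolase Ephx1 was at 81.9, 84.2, 76.4 and 76.8 TPM at P7 and 232, 175, 194 and 196 TPM at 18m (2.50-fold higher). Of 15 genes of this list 7 rose and 1 fell (median log2 fold change 0.35, and 0.59 after rescaling). Without 18m replicate 3 there were 3 falls.

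**Figure D3:**
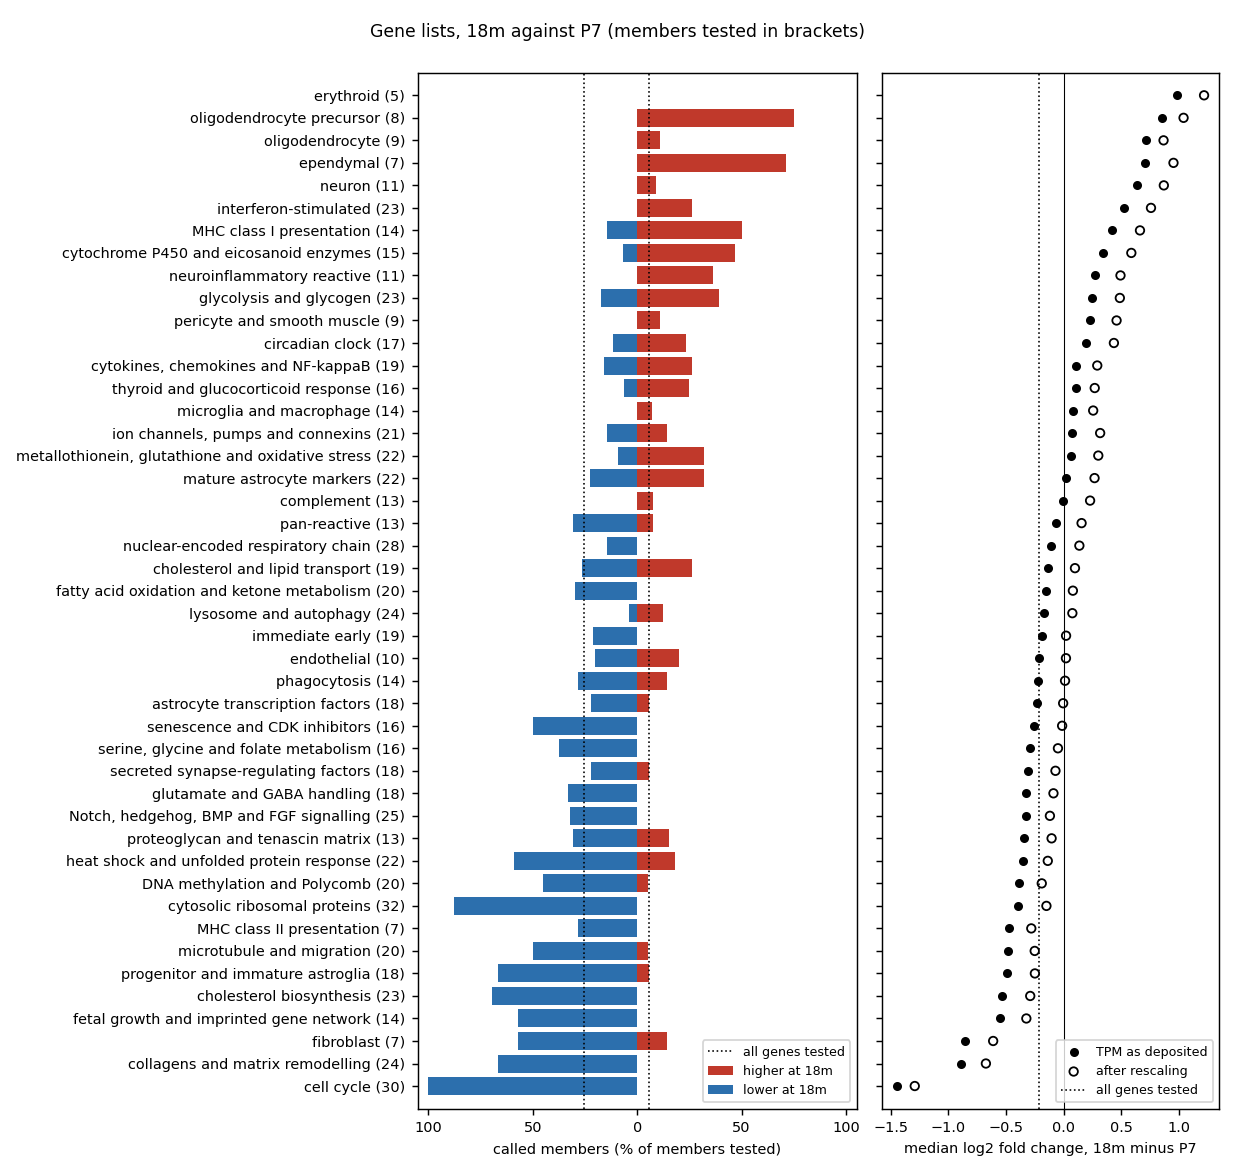
Gene lists with at least 5 tested members, ordered by median log2 fold change: on the left the share of tested members called higher (red) or lower (blue) at 18m by limma, on the right the median log2 fold change on deposited TPM (filled) and after rescaling (open). Cell cycle genes lie at the bottom with 30 of 30 lower, and dotted lines mark all genes tested (25.7% lower, 5.74% higher, median -0.22).

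MHC class I genes, which display peptides to T cells, were higher in part at 18m. Of 14 genes 7 rose and 2 fell (median log2 fold change 0.42, and 0.66 after rescaling). After rescaling limma called 8 higher and 0 lower, with 1 lower at an unadjusted p under 0.05. H2-K1, a class I heavy chain (GRCm38 chromosome 17, 33996017 to 34000347), was at 144, 163, 172 and 150.2 TPM at P7 and 318, 256, 323 and 286 TPM at 18m. It was 1.88-fold higher with no overlap (0.90 ± 0.09 SE on the log2 scale, limma adjusted p = 0.000277). H2-D1, another heavy chain, was 2.10-fold higher, and H2-T23, a non-classical class I gene, 2.19-fold higher. These heavy chains are close paralogs, between which reads can be divided by the counting. Psmb8, a subunit of the immunoproteasome, was at 18.7, 18.9, 18.4 and 13.3 TPM at P7 and 41.8, 33.1, 34.7 and 32.2 TPM at 18m (2.05-fold higher, limma adjusted p = 0.00118).

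Some interferon-stimulated genes rose too. Of 23 tested 6 rose, or 11 after rescaling (median log2 fold change 0.52, and 0.76 after rescaling). Irf7, the transcription factor that amplifies the interferon response, was at 7.15, 7.73, 5.8 and 5.68 TPM at P7 and 16.6, 11.3, 16.3 and 12.2 TPM at 18m (2.14-fold higher, limma adjusted p = 0.00231). The antiviral gene Rsad2 was 3.02-fold higher, Xaf1 1.94-fold higher and Ifi27 1.65-fold higher. C3, the central complement component, was at 0.378, 0.701, 0 and 0 TPM at P7 and 1.37, 3.15, 4.95 and 3.74 TPM at 18m, low at both ages (1.72 ± 0.28 SE on the log2 scale, limma adjusted p = 0.0024). It was the 1 gene called of 13 complement genes tested. Amigo2, a gene of neuroinflammatory reactive astrocytes, was 2.37-fold higher (7.91 ± 1.22 TPM at P7 and 18.7 ± 1.41 TPM at 18m, SD, n = 4 each). Microglial markers summed to 125 to 257 TPM at P7 and 169.9 to 283 TPM at 18m, with overlap. P2ry12, the microglial purine receptor, was at 5.68, 5.13, 5.66 and 6.36 TPM at P7 and 10.7, 14.8, 20.6 and 20 TPM at 18m and was the marker of 14 that rose on deposited TPM (2.90-fold higher), and 2 rose after rescaling. There were 2 rises without 18m replicate 1. The 11 T and B lymphocyte markers in the table, 3 of which passed the filter, summed to 2.98 to 6.4 TPM at P7 and 3.81 to 30.3 TPM at 18m. The part of microglia, lymphocytes and vessel cells in the immune results was not tested.

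Other immune and reactive genes were divided. Of 13 pan-reactive genes 1 rose and 4 fell, while after rescaling 1 rose and 1 fell, against 25.7% and 10.3% of all genes lower. Without P7 replicates 1, 2 or 4 there were 2 falls. The hyaluronan receptor Cd44 was at 12.9, 12.2, 13.4 and 13.5 TPM at P7 and 3.77, 4.51, 7.93 and 4.31 TPM at 18m (2.53-fold lower, limma adjusted p = 0.0016) and the small heat shock gene Hspb1 was 1.92-fold higher. Il33, an alarmin cytokine of glia, was 2.39-fold higher and the chemokine Cxcl14 2.09-fold higher. Cxcl12, a chemokine of vessels and meninges, was 1.90-fold lower and the adhesion molecule Vcam1 1.67-fold lower. Of 19 cytokine, chemokine and NF-kappaB genes 5 rose and 3 fell. There were 2 rises without P7 replicate 4 and 3 without P7 replicates 1 or 3 or 18m replicates 3 or 4. H2-DMa, which loads peptides on MHC class II, was 2.02-fold lower. It was 1 of 2 that fell among 7 class II genes tested, while after rescaling 1 fell. Of all genes, 25.7% and 10.3% were lower. Without P7 replicates 1 or 2 or 18m replicate 2 there was 1 fall and 5 without 18m replicate 1.

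Many senescence and chaperone genes were lower on deposited TPM. Of 16 genes of senescence and CDK inhibition 8 fell, against 25.7% of all genes, while after rescaling 1 fell, against 10.3%. There were 3 falls without P7 replicates 2 or 4 and 4 without 18m replicate 4 and 5 without P7 replicates 1 or 3. Igfbp5 was 2.23-fold lower and Hmgb2, a chromatin protein of dividing cells, 1.76-fold lower, the latter not called after rescaling (-0.59 on the log2 scale, limma adjusted p = 0.0521). Of 22 heat shock and unfolded protein genes 4 rose and 13 fell, while after rescaling 4 rose and 6 fell. The shares of all genes lower were 25.7% and 10.3%. Without P7 replicates 1, 3 or 4 or 18m replicates 1 or 3 there were 2 rises. Canx and Hspa5, chaperones of the endoplasmic reticulum, were 1.87-fold and 1.58-fold lower, and Herpud1, which acts in degradation of their clients, 1.75-fold higher. The lysosomal protease Ctsf was 1.43-fold higher and the autophagy receptor Sqstm1 1.34-fold higher, and of 24 lysosome and autophagy genes 3 rose and 1 fell. After rescaling limma called 6 higher and 0 lower, with 0 lower at an unadjusted p under 0.05. There were 5 rises without 18m replicate 1. Without 18m replicate 3 there were 2 falls, and the fall was not called without P7 replicates 1, 2, 3 or 4 or 18m replicate 4. Egr1, an immediate early gene that cell isolation can induce, was at 72.1, 124, 170.2 and 48.6 TPM at P7 and 38.1, 16.3, 44.5 and 22.9 TPM at 18m (3.41-fold lower, limma adjusted p = 0.0129). In a fit of all 34 libraries it was not called (limma adjusted p = 0.075). Of 19 immediate early genes 4 fell, while after rescaling 1 rose and 1 fell, against 25.7% and 10.3% of all genes lower. There was 1 fall without P7 replicates 2 or 3 or 18m replicate 2.

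A minority of clock genes was called, in both directions. The time of day at which cells were taken was not among the sample facts used here, and its part was not tested. Dbp, a clock output factor driven by the CLOCK and BMAL1 pair, was at 104, 147, 157 and 123 TPM at P7 and 301, 337, 524 and 483 TPM at 18m (3.10-fold higher, 1.60 ± 0.19 SE on the log2 scale, limma adjusted p = 0.000442). Nr1d1, the repressor REV-ERB alpha, was 2.58-fold higher (70.1 ± 15.1 TPM at P7 and 181 ± 25.2 TPM at 18m, SD, n = 4 each). Arntl, which encodes BMAL1, was at 30.5, 28.1, 31.3 and 30.1 TPM at P7 and 7.79, 11.1, 14.2 and 14.7 TPM at 18m. It was 2.51-fold lower (limma adjusted p = 0.000974), and Clock 2.17-fold lower. Of 17 clock genes 4 rose and 2 fell. Without 18m replicate 1 there were 7 rises. Of 16 thyroid and glucocorticoid response genes 4 rose and 1 fell. Tsc22d3, a glucocorticoid target, was at 219, 264, 249 and 234 TPM at P7 and 493, 623, 378 and 1033 TPM at 18m (2.62-fold higher), Hsd11b1, which regenerates active glucocorticoid, was 2.32-fold higher, and Crym, which binds thyroid hormone, 1.86-fold higher.

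Transcripts of other cell types differed between the ages as well. Sums of markers are over all genes of a list that are in the table, tested or not. Ependymal markers summed to 600.5 to 785 TPM at P7 and 1346 to 1875 TPM at 18m without overlap, and 5 of 7 rose. Ccdc153, a gene of motile cilia, was at 66.4, 84.9, 60.1 and 77.7 TPM at P7 and 158, 221, 363 and 301 TPM at 18m (3.61-fold higher), Tmem212 was 2.77-fold higher and Rarres2 2.41-fold higher. Of 8 oligodendrocyte precursor markers 6 rose, among them the lineage factor Sox10 at 4.94-fold and the receptor gene Gpr17 at 4.98-fold, while their sums overlapped (350.5 to 421 TPM at P7 and 219 to 468 TPM at 18m). There were 2 rises without P7 replicates 3 or 4 or 18m replicate 2 and 3 without 18m replicate 4. Mal was the gene called of 9 markers of mature oligodendrocytes (2.17-fold higher), with 5 called without 18m replicate 1. The 12 such markers in the table summed to 291 to 431 TPM at P7 and 221 to 1542 TPM at 18m.

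Neuronal markers summed to 52 to 74.2 TPM at P7 and 72.6 to 165 TPM at 18m, with overlap. The vesicular glutamate transporter Slc17a7 was at 0.824, 1.49, 1.08 and 0.994 TPM at P7 and 0.785, 16.3, 3.72 and 10.8 TPM at 18m, with replicate 1 of 18m at the P7 level. Of 11 neuronal markers tested 1 rose, while after rescaling 3 rose. Without P7 replicate 2 or 18m replicate 4 there were 2 rises and 5 without 18m replicate 1. Endothelial markers summed to 777 to 1274 TPM at P7 and 870.1 to 2419.5 TPM at 18m, with Ly6c1 3.07-fold higher (303 ± 74.4 TPM at P7 and 929 ± 442 TPM at 18m, SD, n = 4 each) and the receptor Kdr 1.87-fold lower, the latter not called after rescaling or without any 1 of P7 replicates 1, 2, 3 or 4 or 18m replicate 1 (limma adjusted p of 0.0513 to 0.108). Slc6a13, a GABA transporter of meningeal fibroblasts, was 1.83-fold lower, and likewise not called after rescaling. Pericyte and smooth muscle markers summed to 2351 to 3630 TPM at P7 and 3167 to 5804 TPM at 18m. Haemoglobin genes split the oldest libraries. Hba-a1 was at 1703, 1940.3, 1608 and 2207 TPM at P7 and 6969, 6525, 1944 and 2229 TPM at 18m, and Hba-a2, a near-identical copy, followed it with 12182 and 10559 TPM in replicates 1 and 2 and 3306 and 3696 TPM in replicates 3 and 4. Limma called 0 of 5 erythroid genes, with 5 higher at an unadjusted p under 0.05, 5 called without 18m replicate 3 and 3 called without 18m replicate 4. Ttr, the transthyretin of choroid plexus, was at 39.5, 196, 6.96 and 6.29 TPM at P7 and 0.619, 1.1, 179 and 2.03 TPM at 18m, high in single libraries of both ages. The part of these cells in the astrocyte results was not tested.

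The levels at the other 7 ages place these differences. Aurkb averaged 7.31 ± 0.77 TPM (SD, n = 4) at P14, 2.97 ± 0.539 (SD, n = 3) at P60 and 16.3 ± 2.07 (SD, n = 5) at 3 months, the last close to P7 (16.8 ± 2.25, SD, n = 4). Tnc was at 10.3 ± 2.02 TPM (SD, n = 4) at P14, 3.76 ± 0.27 (SD, n = 3) at P60 and 25.7 ± 5 (SD, n = 5) at 3 months. In both genes the libraries of 3 months thus lay nearer to P7 than to 18m. Hmgcs1 was at 143 ± 15.2 TPM (SD, n = 3) at P60, within the SD of 18m (144 ± 32, n = 4), and at 245 ± 6.16 (SD, n = 3) at 12 months. Ntsr2 reached 2320.5 ± 208 TPM (SD, n = 4) by P14, and Cyp2d22 120.5 ± 24.4 (SD, n = 4). H2-K1 was at 335 ± 20.7 TPM (SD, n = 3) at P28, above the mean of 18m (296 ± 31.3, SD, n = 4), and Mt1 at 16504 ± 1236 (SD, n = 3) at P21 against 15361 ± 4872 (SD, n = 4) at 18m. For each of these 7 genes at least 1 age up to P60 had a mean within 1 SD of that of 18m. These levels are descriptions without a test, on TPM as deposited. The other ages differ in spread and in the number of genes at 0, and the part of this in the levels was not tested.

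**Figure D4:**
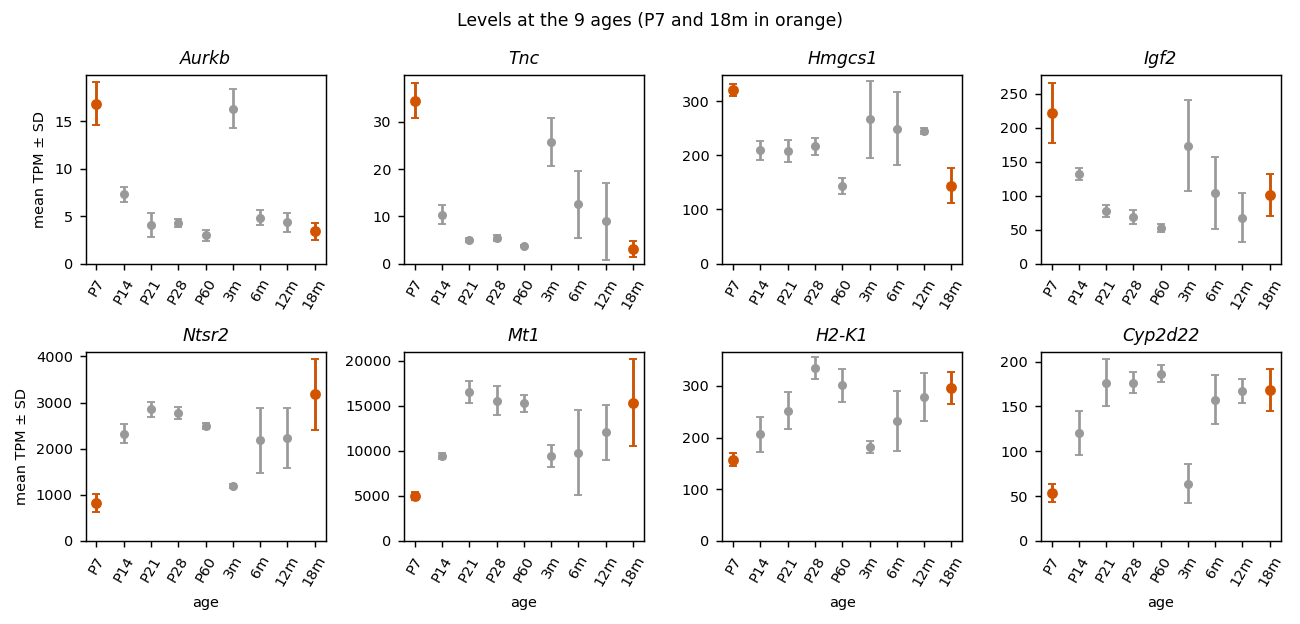
Mean TPM and SD of 8 genes at the 9 ages of the series, 3 to 5 libraries each, with P7 and 18m in orange. Aurkb and Tnc are high at P7 and at 3 months and low at 18m, while Ntsr2, Mt1, H2-K1 and Cyp2d22 are lower at P7 and at 3 months than at 18m.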

How the data were processed

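Polyadenylated RNA of magnetically isolated cortical astrocytes was amplified with a low-input kit and sequenced, per the labels' protocols. The deposited values are TPM per gene, 1 column per library, made by the authors, and keep no read counts, so the depth and the counting precision of a library are unknown. Build mm10 and the tools RSEM 1.2.28, DESeq2 1.36.0, STAR 2.7.1a and Trim Galore 0.6.4 are listed in the submitters' processing notes, without their roles. Samples were grouped by the age in their titles.

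TPM were taken as log2(TPM + 1). Of 20614 rows 1 held no values, and the 13134 genes that reached 1 TPM in 4 or more of the 8 libraries were tested, 18m minus P7, in R 4.3.3 by limma 3.58.1 with its trend and robust settings, Benjamini-Hochberg adjustment over all genes tested and a threshold of 0.05. The code was tested on simulated data. Alternatives changed the pseudocount, the filter, the scaling, the weights, the call rule, the libraries in the fit and the replicate block, and each library was left out in turn.

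Named genes were the 12 largest rises and 12 largest falls among calls without overlap of the ages and with at least 5 TPM in the higher age, the 10 largest gains and 10 largest losses in mean TPM, the 4 members of smallest p of each of 49 gene lists, and a fixed set of background genes. The text names part of them. Promoters were shown for 2 of the 7 lists with at least 10 calls and at least 80% of them in 1 direction. These 2 had the highest shares of CCAAT of the 7. The comparison, the members and the lists were chosen with earlier results of these data known. Where 1 symbol had several gene identifiers (28 symbols), the list member was the one of highest mean TPM, and near-identical copies can share reads. Gene positions are from GENCODE M21 on GRCm38 and promoters from RefSeq on GRCm38.p6. Listed genes that are not in the table were not analysed here.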

Additional observations from a re-analysis of the deposited data

Results flagged for a closer look

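In 14 of 304 sets of 4 libraries (the genes named above, each at P7 and at 18m) the highest or lowest library lay apart from the other 3 by Dixon's criterion, which chance alone meets in about 1 of 20 sets. Replicate 1 of 18m was that library in 9 of the 14. It was low for Bmpr1a (15.9 TPM against 24.9 to 25.8), Dnmt1 (2.78 against 4.54 to 4.86), Igfbp5 (9.25 against 15.7 to 16.9), Stmn1 (209 against 305 to 324) and Tuba1a (1556 against 2287 to 2358). It was high for Mt2 (4670.1 TPM against 2765 to 3079), Ndn (29.0 against 17.7 to 19.5), Ndufa1 (686 against 513 to 527) and Slc6a13 (121 against 78.5 to 81.5).

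Of the other libraries at 18m, replicate 2 was low for Inmt (19.5 TPM against 48.2 to 52.5). Replicate 3 was high for Lamb1 (6.89 TPM against 4.13 to 4.28) and for Ttr (179 against 0.619 to 2.03). At P7, replicate 3 was high for Mt1 (5670 TPM against 4761 to 4802) and replicate 4 low for Psmb8 (13.3 against 18.4 to 18.9).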

How the results depend on the processing

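The counts of 754 genes higher and 3369 lower moved with the scaling and with the call rule. Median-of-ratios rescaling gave 1555 and 1353, and quantile normalization 1476 and 1740, so that 18.3% of calls were higher on deposited TPM, 53.5% after rescaling and 45.9% after quantile normalization. Limma's array weights raised the count of higher genes to 1348, and asking for a change of at least 2-fold left 272 higher and 357 lower. With 1 library left out, 514 to 1329 genes were higher and 1835 to 3923 lower. A pseudocount of 0.1 TPM, no filter, a filter of 5 TPM, the replicate block, all 34 libraries and the 4-age fit (P7, P14, 12m and 18m) kept both counts within 1.5 times. By construction, quantile normalization gives the most abundant gene 1 value in all libraries, and it put Apoe at a log2 fold change of 0. It put Ckb at -0.26 (limma adjusted p = 0.136), and the cause was not tested. Under it Cst3 was not called (adjusted p = 0.435) and Slc1a3 was called lower (-0.37, adjusted p = 0.0402). In the fit of all 34 libraries Dbi, Egr1, Hspa8, Id3, Igfbp2, Kdr, Rpl41 and Rps29 were not called. Gpr17 was not called without P7 replicates 3 or 4 or 18m replicate 2. Without 18m replicate 1 Slc17a7 was called higher (2.25, limma adjusted p = 0.00208), and without 18m replicate 3 Ttr was called lower (-3.58, limma adjusted p = 0.0252).

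With the replicate number as a block, 801 genes were higher and 3279 lower, 699 and 2932 of them shared with the fit without it. Correlations of same-numbered P7 and 18m libraries, over genes and about the mean of each age, were 0.121, 0.0228, -0.0542 and 0.0359. Those of differently numbered libraries ran from -0.149 to 0.141, and not every library correlated best with its own number. So few values cannot decide whether the numbers pair the libraries. Under the block Fabp7 (adjusted p = 0.0734), Gpr17 (0.0591) and Ncan (0.0518) were not called, and no other gene named here changed its call.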
